A study of Mus musculus with 30 samples.

Results

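Mpo, Prtn3, Elane, Ctsg, Cebpa, Spi1, Csf1r, Csf3r, Irf8 and Gfi1 are genes of the myeloid lineage whose low-level transcription in stem cells is called myeloid priming. They were chosen by name, as the genes of the deposited count table whose gene identifier carries 1 of these symbols in the authors' comparison tables. All 10 were found among the 17562 genes of the table. Each was followed in CPM, its count per 1000000 counts of the library, over 29 libraries. For single genes the size of the library is the one after TMM normalization, which was 0.936 to 1.11 times its total. For sums over marker lists it is the total itself.

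Myeloid commitment is driven by a small set of transcription factors, of which PU.1 (encoded by Spi1) and C/EBP alpha (Cebpa) act at the entry to the lineage, while IRF8 favours monocytes and dendritic cells and GFI1 favours neutrophils. These factors switch on the receptors for macrophage and granulocyte growth factors (Csf1r and Csf3r) and, in promyelocytes, the contents of the azurophil granules: myeloperoxidase (Mpo) and the serine proteases proteinase 3 (Prtn3), neutrophil elastase (Elane) and cathepsin G (Ctsg). Stem cells can carry transcripts of such genes before any commitment, and old stem cells in mice are known for a shift of their output towards myeloid and platelet lineages.

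The libraries were made from haematopoietic stem cells sorted from bone marrow of male mice of the strains B6 and BoyJ, which are congenic and differ at Ptprc, and no other allele is stated. Young mice were 8 to 12 weeks old at the procedure, old B6 mice 22 months and old BoyJ mice 21 months. Unjoined young controls (YCNT) had 7 libraries (3 B6, 4 BoyJ) and unjoined old controls (OCNT) 4 (3 B6, 1 BoyJ). Parabiosis joins the circulations of a pair of mice: young mice with a young partner (isochronic, YISO) had 4 libraries (2 B6, 2 BoyJ), old mice with an old partner (OISO) 6 (5 B6, 1 BoyJ), young mice with an old partner (heterochronic, YHET) 2 (BoyJ), and old mice with a young partner (OHET) 4 (B6). In 2 further libraries (OHETX, B6) old cells had been taken from the marrow of the young partner. Young heterochronic cells were thus all BoyJ and old heterochronic cells all B6. The labels do not say whether joined partners are both among the libraries, and p-values measure the spread between these samples.

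For 10 of the 29 libraries the title and the description of the sample disagree on which library of the count table belongs to it. Columns were matched by title, and the age difference of Prtn3 and the correlations between members are also given for the 19 libraries where title and description name 1 sample: 4 of OCNT and OISO each, 4 of YCNT, 3 of YISO, 2 of OHET and YHET each, and none of OHETX. Libraries held 7659468 to 30932977 counts, the lowest being OHETB6X replicate 1 of the OHETX condition. The labelled cell type was checked with stem cell markers, which were present in every library: Procr at 30.7 to 169 CPM, Slamf1 at 35.9 to 148, Fgd5 at 35.6 to 130, Mecom at 314 to 543, Hlf at 608 to 1390, Kit at 652 to 1050 and Hoxb5 at 0.417 to 11.4. Mature neutrophil markers (10 genes, among them S100a8, S100a9, Ngp and Camp) included Cxcr2, which stood at 6.78 to 22.9 CPM in every library. Summed, they took 8.92 to 2360 CPM, and in 6 libraries over 100 CPM. Those were OHETB6X replicate 1 (2360), OISOB6 replicate 5 (622), OISOB6 replicate 1 (525), OHETB6 replicate 4 (417), YHETBJ replicate 1 (260) and YB6CNT replicate 1 (210).

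The stretches before the start sites of the 4 granule genes are shown because Mpo, Elane and Ctsg varied together between libraries while Prtn3 followed age, as described further on. They are the parts of the 250 bases before the RefSeq start (GRCm38.p6) that lie before the annotated exon at that start. They are written 5′ to 3′ on the gene's strand, with motif letters in capitals. Prtn3's stretch was added after its values had been seen.
Mpo, chr11:87793534-87793580, plus strand: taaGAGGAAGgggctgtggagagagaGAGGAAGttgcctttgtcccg
Elane, chr10:79886062-79886246, plus strand: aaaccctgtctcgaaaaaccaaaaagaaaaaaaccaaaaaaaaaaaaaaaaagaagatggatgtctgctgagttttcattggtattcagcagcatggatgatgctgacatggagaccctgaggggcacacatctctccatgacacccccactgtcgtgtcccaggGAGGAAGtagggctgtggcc
Prtn3, chr10:79879417-79879613, plus strand: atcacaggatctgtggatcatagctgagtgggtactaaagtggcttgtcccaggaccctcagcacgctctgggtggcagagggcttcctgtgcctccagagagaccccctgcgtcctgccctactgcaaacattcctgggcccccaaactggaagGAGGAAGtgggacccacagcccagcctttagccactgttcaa
Ctsg, chr14:56102575-56102824, minus strand: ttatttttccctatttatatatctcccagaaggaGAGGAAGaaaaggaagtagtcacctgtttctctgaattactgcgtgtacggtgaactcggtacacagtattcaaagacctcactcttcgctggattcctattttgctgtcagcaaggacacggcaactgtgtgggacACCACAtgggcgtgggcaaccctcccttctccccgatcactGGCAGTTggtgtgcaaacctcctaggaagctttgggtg
The motifs searched on both strands were GAGGAAG (PU.1), TTGCNNAA (C/EBP), TGTGGT (RUNX), AACNGNC (Myb) and a longer GFI1 motif, and none of the matches in the 4 windows overlap. GAGGAAG stood in all 4 granule gene windows, 95 bases before the RefSeq start in Prtn3, 85 before it in Elane, 216 in Ctsg, and 247 and 224 in Mpo. Of 32841 windows of 250 bases in the RefSeq table, 10.6% held GAGGAAG, 9.57% TTGCNNAA, 14.0% TGTGGT, 27.7% AACNGNC and 0.158% the GFI1 motif. Of the other members, Csf3r held GAGGAAG 86 bases before its start. Gfi1 held the C/EBP motif 143 bases before 1 of its starts, and Irf8 the Myb motif 39 bases before 1 of its starts. Elane held 2 matches to the Myb motif and Mpo and Ctsg 1 each, while Prtn3 held none. Those of Elane (50 and 22 bases before the RefSeq start) and Mpo (165 bases) lie past the annotated start of the gene. They are therefore outside the printed stretches, and only the Myb match of Ctsg is shown. A match says only that these letters stand in the window.

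Compared per kilobase of exon, the scale on which genes can be set side by side, Prtn3 was the most abundant member, with a median level of 38.4 CPM per kb over the 29 libraries. Csf3r followed with 19.4 and Spi1 with 10.6 CPM per kb. Gfi1 stood at 1.99, Mpo at 1.64, Elane at 0.449, Irf8 at 0.181, Csf1r at 0.0980 and Cebpa at 0.0765 CPM per kb, and Ctsg had a median of 0. Gfi1 and Mpo were not apart beyond their spread, since Mpo alone ran from 0.179 to 86.95 CPM per kb.

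Prtn3 (ENSMUSG00000057729), which encodes a serine protease of azurophil granules, was the only member called by edgeR in the age comparisons. It lies on GRCm38 chromosome 10 from 79874476 to 79883174 on the plus strand. Unjoined young controls held 24.0 to 44.4 CPM with a median of 34.4 over 7 libraries, and unjoined old controls 66.4, 89.0, 91.1 and 118 CPM. No old library came down to the young range, and the single BoyJ library of the old controls was the highest. The means were 91.2 ± 21.2 CPM (SD, n = 4) in OCNT and 33.7 ± 8.17 CPM (SD, n = 7) in YCNT. Old exceeded young by 1.57 on the log2 scale (SE 0.16, edgeR quasi-likelihood test with Benjamini-Hochberg adjusted p = 4.74e-07), a rise of 2.97-fold. Prtn3 was thus 1 of 10 members called, where 2.11% of the 16068 genes tested were called in either direction and 1.59% as higher. It ranked 5th by p among all genes.

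The rise was also present in joined animals of like age. Isochronic young libraries held 28.8, 39, 39 and 41.4 CPM, and isochronic old libraries 67.2 to 98.2 CPM with a median of 91.9 over 6. The groups again did not overlap. The log2 fold change between OISO and YISO was 1.38 (SE 0.18, edgeR adjusted p = 2.59e-05), or 2.60-fold, and Prtn3 was the 1 member called, with 1.45% of all genes called, and 1.11% as higher. This comparison shares no library with that of the unjoined mice. The age effect did not differ detectably between isochronic and unjoined mice (log2 difference -0.19, SE 0.23, edgeR adjusted p = 0.992).

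In heterochronic mice the order was the same: the YHET libraries stood at 36.8 and 44.5 CPM and the OHET libraries at 64.7, 88.4, 106 and 115 CPM. Old cells lodged in the marrow of a young partner held 80.0 and 89.2 CPM, within the range of the other old libraries. Averaged over unjoined, isochronic and heterochronic mice, Prtn3 was 1.51 higher on the log2 scale in old cells (SE 0.13, edgeR adjusted p = 9.83e-09), the 1 member called where 3.78% of genes were, 2.86% as higher. All 14 old libraries, at 64.7 CPM or above, exceeded all 13 young ones, at 44.5 CPM or below. Such a separation in the upward direction was found for 0.311% of all genes, for 2.63% between OCNT and YCNT, for 2.57% between OISO and YISO and for 5.76% between OHET and YHET. In these bulk libraries a change in the number of cells that hold a transcript and a change in transcript per cell cannot be told apart.

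**Figure D1:**
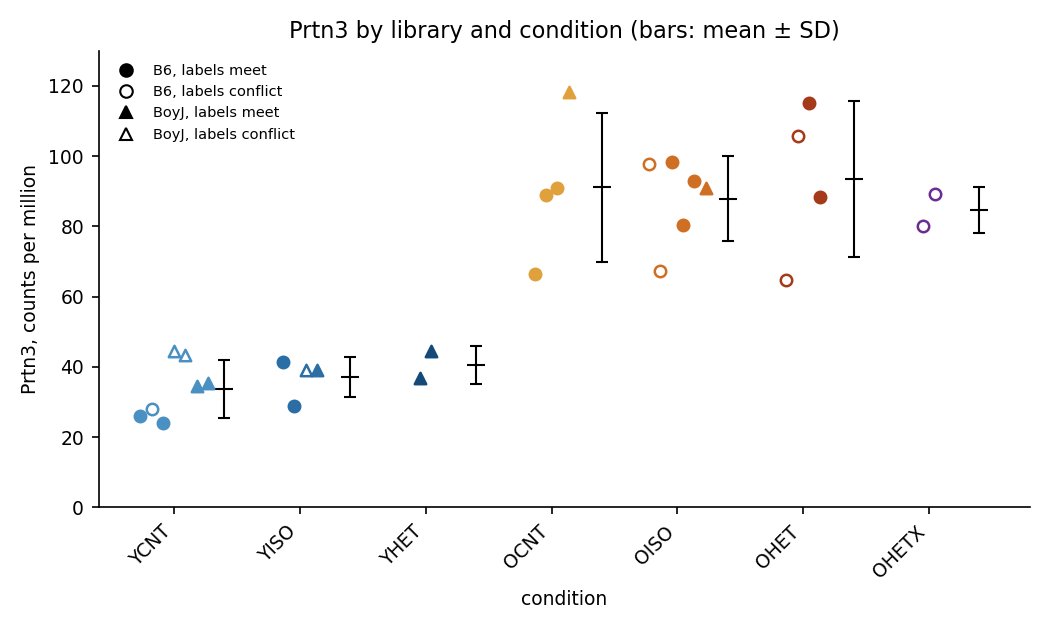
Prtn3 in CPM (vertical axis) for each of the 29 libraries by condition (horizontal axis), with B6 as circles, BoyJ as triangles, open symbols for the 10 libraries whose labels disagree and black bars for the mean ± SD. The young libraries lie between 24.0 and 44.5 CPM and all old ones, OHETX included, at 64.7 CPM or above.

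On the 19 libraries whose labels meet, Prtn3 stood at 29.9 ± 5.80 CPM (SD, n = 4) in YCNT and 91.2 ± 21.2 (n = 4) in OCNT, and at 36.4 ± 6.69 (n = 3) in YISO and 90.6 ± 7.45 (n = 4) in OISO. The log2 fold changes there were 1.68 (edgeR adjusted p = 3.74e-05) and 1.35 (edgeR adjusted p = 0.000841). Without the 6 libraries with over 100 CPM in neutrophil markers they were 1.54 (edgeR adjusted p = 2.45e-05) and 1.27 (edgeR adjusted p = 0.00106). Within B6 alone they were 1.65 (edgeR adjusted p = 0.000487) and 1.30 (edgeR adjusted p = 0.00891). The authors' deposited table for young over old isochronic cells gives Prtn3 a log2 fold change of -1.24 with an adjusted p of 1.6e-11, and the authors' deposited table for young over old heterochronic cells gives -1.21 with an adjusted p of 0.000147.

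Several markers of other cells moved with age in the same comparisons, and their part in the Prtn3 difference was not tested. Of 6 megakaryocyte markers, Vwf (von Willebrand factor) rose in both age comparisons, by 2.28 and 1.87 on the log2 scale (edgeR adjusted p = 1.18e-06 and 0.00019), and the summed markers took 78.4 to 165 CPM in YCNT and 242 to 352 in OCNT. Of 5 multipotent progenitor markers, Flt3 (-1.57) and Cd34 (-0.80) fell in the unjoined mice and Cd34 (-0.96) in the isochronic ones. Stem cell markers Slamf1 (1.37) and Procr (0.99) rose in the unjoined mice. Of 10 cell cycle genes 6 fell there, among them Cdk1 (-0.99) and Mki67 (-0.94), and 1, Aurkb (-1.03), in the isochronic mice. Of the 6 T and NK cell markers, 3 were tested and Klrb1c rose in both comparisons (2.99 and 2.78), while Cd3d stayed at 0.761 to 4.11 CPM in all libraries. None of the 10 mature neutrophil markers, the 10 monocyte and macrophage markers, the 6 tested B cell markers or the 8 erythroid markers passed the edgeR test in either age comparison. At an unadjusted p under 0.05, 2 monocyte and 2 erythroid markers passed between OCNT and YCNT, and 2 B cell markers and 1 erythroid marker between OISO and YISO. Neutrophil markers took 17.0 to 210 CPM in YCNT and 18.1 to 44.2 in OCNT, and 13.4 to 92.3 in YISO and 19.7 to 622 in OISO. The OHETX libraries held at most 177 CPM of megakaryocyte markers, inside the YISO range of 106 to 194, with Prtn3 at 80.0 and 89.2 CPM. As single libraries, OHETB6 replicate 3 held 115 CPM of Prtn3 with 18.0 CPM of neutrophil markers and no count of Elane or Ctsg. OISOB6 replicate 5 held 92.8 CPM of Prtn3 with 622 CPM of neutrophil markers.

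Prtn3 and Elane are neighbours, Elane starting 3073 bp after the end of Prtn3 on the same strand. Within 100000 bp of Prtn3, a window chosen after its values were seen, no other tested gene was called in either age comparison. Plppr3, on the opposite strand, overlaps the first annotated 159 bp of Prtn3, which belong to 1 of its 6 transcripts, whereas the transcript Prtn3-201 starts 5138 bp further on. Plppr3 had log2 fold changes of 0.52 (OCNT minus YCNT, edgeR adjusted p = 0.436) and 0.70 (OISO minus YISO), and how the counting treated the strand is not given in the sources used here. Prss57, a serine protease gene of neutrophil granules in the same cluster, had 0.27 and 0.73. Among neighbours with a median below 1 CPM, none of them called, Kiss1r had a larger log2 value than Prtn3 between OCNT and YCNT (2.00) and Grin3b between OISO and YISO (2.67). Both were picked out after their values were seen. Ptbp1, an abundant splicing regulator nearby, had 0.00 in the unjoined mice (SE 0.10).

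**Figure D2:**
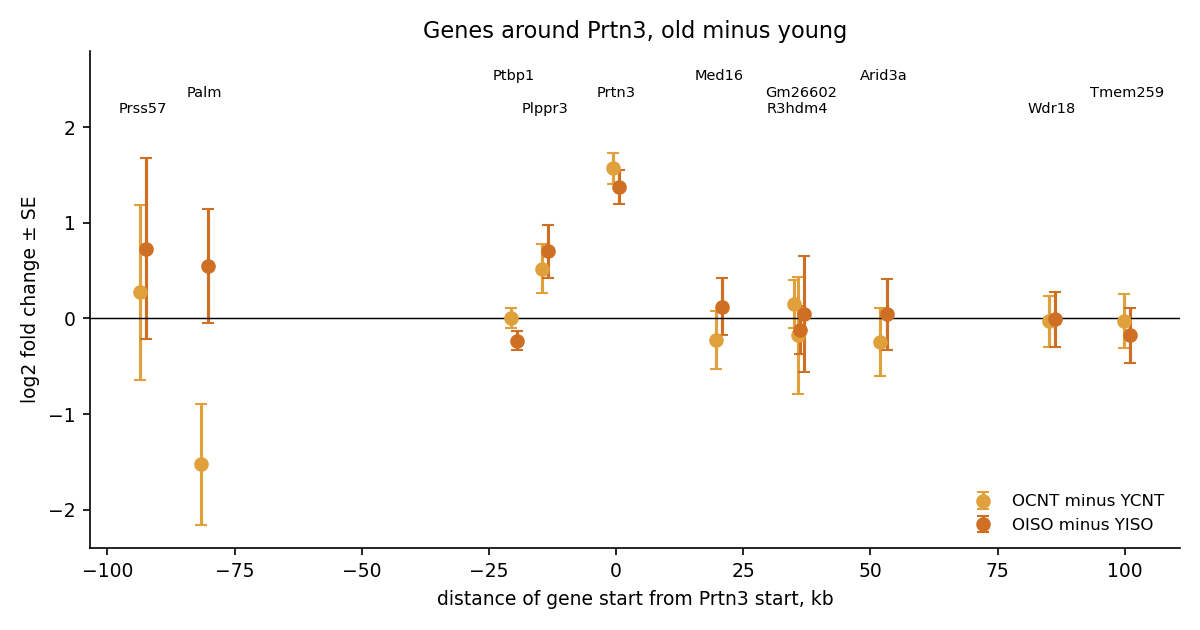
Log2 fold change of old over young (vertical axis, bars ± SE) for tested genes with a median of at least 1 CPM against the distance of their start from that of Prtn3 in kb (horizontal axis), in unjoined (OCNT minus YCNT) and isochronic (OISO minus YISO) mice. Prtn3, at 1.57 and 1.38, stands above the other genes drawn in both comparisons; tested neighbours below that level, among them Elane, Kiss1r and Grin3b, are not drawn.

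Over the 29 libraries the genes whose log2 CPM followed that of Prtn3 most closely were Selp (P-selectin, r = 0.951), Aldh1a1 (a retinaldehyde dehydrogenase, r = 0.916) and Bmpr1a (a BMP receptor, r = 0.913), out of 9235 genes searched. Genes searched were not members and had a mean log2 CPM of at least 3. The libraries share their age groups, so genes that differ with age correlate for that reason alone, and 0.585% of the genes had an r above 0.8 in size. This search was added after the values of Prtn3 had been seen.

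Mpo, Elane and Ctsg behaved otherwise: their levels differed between single libraries far more than between conditions. Mpo (ENSMUSG00000009350, chromosome 11 at 87793581 to 87804413) encodes the peroxidase of azurophil granules. It reached 298 CPM in OHETB6X replicate 1, 187 in OISOB6 replicate 5 and 110 in OHETB6 replicate 4. It stood between 16.0 and 57.0 CPM in a further 7 libraries and between 0.613 and 9.46 in the other 19. The highest library exceeded the lowest, OHETB6X replicate 2, by 486-fold, and both belong to the OHETX condition. The SD of log2 CPM within conditions was 2.45 for Mpo, against a median of 0.686 for 1358 genes of like level, and 0.296 for Prtn3, against 0.315 for 2173 genes.

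By condition, Mpo was lowest and most even in the old unjoined controls, at 0.913, 1.46, 1.65 and 2.12 CPM. The 7 YCNT libraries held 1.72 to 57.0 CPM with a median of 5.63, and the YISO libraries 1.70, 20.6, 34.3 and 51.3 CPM. OISO held 1.19 to 187 CPM with a median of 5.91, OHET held 1.15, 16.0, 43.7 and 110 CPM, and YHET 3.30 and 9.07 CPM. OCNT and YCNT overlapped, and so did every other pair of conditions compared for Mpo.

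Elane (ENSMUSG00000020125, chromosome 10 at 79886247 to 79888215), which encodes neutrophil elastase, had no count in 8 of the 29 libraries and reached 24.8 CPM in OISOB6 replicate 5 and 21.5 in OHETB6X replicate 1. Ctsg (ENSMUSG00000040314, chromosome 14 at 56099881 to 56102574, minus strand), which encodes cathepsin G, had no count in 15 libraries and reached 16.0 CPM in OHETB6X replicate 1, 13.1 in OHETB6 replicate 4, 8.56 in YISOBJ replicate 1 and 7.67 in OISOB6 replicate 5. A count of 0, of these genes or of any other member, allowed 0.0878 to 0.41 CPM, the level of 3 counts in that library. These limits cover counting error only. Ctsg had 3 counts in all over the 4 OCNT libraries. Their SDs of log2 CPM within conditions were 2.78 for Elane and 2.55 for Ctsg, against medians of 1.22 and 1.31 for genes of like level.

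The 3 genes were high in the same libraries. With each condition's mean subtracted, log2 CPM of Mpo and Elane correlated with r = 0.871 over 29 libraries (adjusted permutation p = 0.00112, 2-sided, over 45 pairs of members) and rho = 0.841 (adjusted permutation p = 0.00135). Mpo and Ctsg gave r = 0.835 (adjusted permutation p = 0.00112) and rho = 0.792 (adjusted permutation p = 0.00607), and Elane and Ctsg r = 0.718 (adjusted permutation p = 0.0309) and rho = 0.741 (adjusted permutation p = 0.00675). Without the 2 libraries farthest from the median of the first gene, r was 0.837, 0.779 and 0.639 for these pairs. Within B6 (n = 19) it was 0.922, 0.895 and 0.768, and within BoyJ (n = 10) 0.642, 0.677 and 0.564. On the 19 libraries whose labels meet, r was 0.837, 0.814 and 0.680, and there no pair passed an adjusted permutation p of 0.05. None of the other 42 pairs passed on the 29 libraries. Prtn3 was not among the pairs that passed, with r = -0.116 to Mpo, 0.0152 to Elane and 0.0644 to Ctsg (adjusted permutation p = 0.886, 0.970 and 0.970). Cebpa and Gfi1 gave r = 0.626 (adjusted permutation p = 0.117).

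Markers of other cells moved with these genes in part, and their part in the pattern was not tested. The 3 libraries highest in Mpo were also among the 4 highest in mature neutrophil markers, at 2360, 622 and 417 CPM. OISOB6 replicate 1, with 525 CPM of those markers, held 9.46 CPM of Mpo, and OHETB6 replicate 2, with 43.7 CPM of Mpo and 8.75 of Elane, held 8.92 CPM of them, the lowest of all libraries. Erythroid markers took 275, 243, 175 and 213 CPM in the 4 libraries highest in Mpo and 15.3 to 198 in the others. Of the neutrophil markers, Mmp8 and Mmp9 had no count in 19 libraries and Retnlg none in 22, and each peaked in OHETB6X replicate 1. The 9235 genes searched for likeness left out Elane, Ctsg and all genes of low level. Among them those most like Mpo over the 29 libraries were Tfrc (the transferrin receptor, r = 0.695), Eif2b3 (r = 0.686) and Car1 (a carbonic anhydrase of erythroid cells, r = 0.637). How large the highest r of so many genes would be by chance was not tested.

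**Figure D3:**
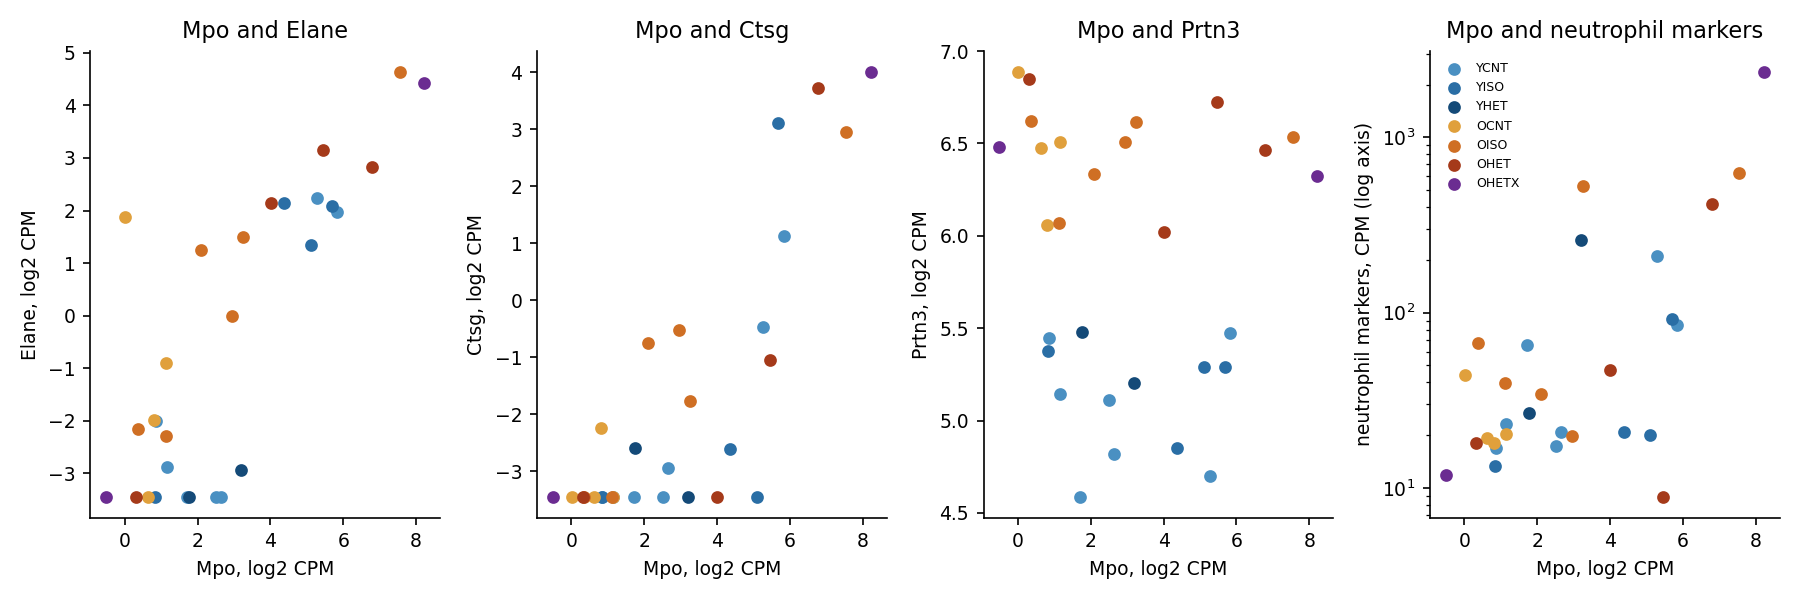
Elane, Ctsg and Prtn3 in log2 CPM and summed mature neutrophil markers in CPM on a log axis (vertical axes) against Mpo in log2 CPM (horizontal axes), 1 point for each of the 29 libraries coloured by condition; the lowest row of points for Elane and Ctsg holds libraries with no count. Elane and Ctsg climb with Mpo, while Prtn3 lies higher in old than in young libraries where their Mpo levels overlap; the highest and the lowest levels of Mpo belong to old libraries.

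With such a spread, none of the 3 genes passed the test with age. Between OCNT and YCNT the log2 fold change was -3.38 for Mpo (SE 1.75, edgeR adjusted p = 0.478), -0.38 for Elane (SE 1.66, edgeR adjusted p = 0.968) and -2.61 for Ctsg (SE 2.54, edgeR adjusted p = 0.792). Between OISO and YISO it was 0.44 for Mpo (SE 1.72, edgeR adjusted p = 0.961), 1.18 for Elane (SE 1.79, edgeR adjusted p = 0.872) and 0.95 for Ctsg (SE 2.50, edgeR adjusted p = 0.941). Single libraries set several of these directions. Without OISOB6 replicate 5 the isochronic values were -2.18 for Mpo, -0.87 for Elane and -1.71 for Ctsg. Over the members as a whole, 2 of 10 values were positive between OCNT and YCNT with a median of -0.38 (all genes -0.0218), and 9 of 10 between OISO and YISO with a median of 0.33 (all genes 0.00261).

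**Figure D4:**
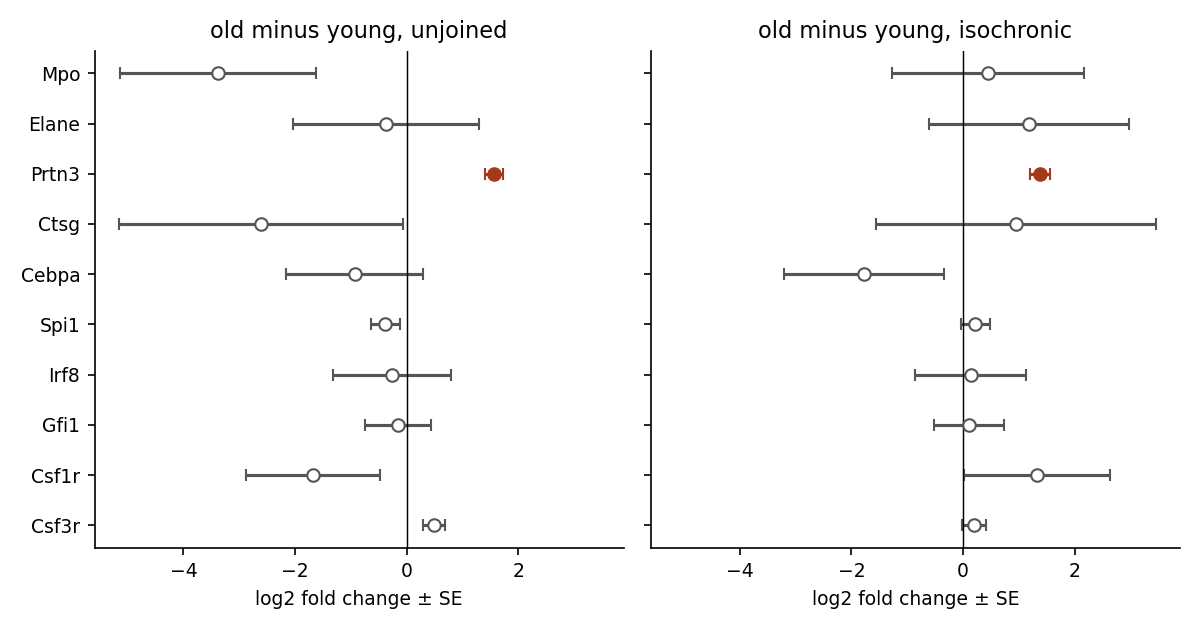
Log2 fold change of old over young (horizontal axis, bars ± SE) for the 10 members in unjoined mice (left, OCNT minus YCNT) and isochronic mice (right, OISO minus YISO), with the called gene filled. Prtn3, at 1.57 and 1.38, is the only gene called, and the widest bars belong to Mpo, Elane, Ctsg, Cebpa and Csf1r.

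None of the transcription factors was called by edgeR in the age comparisons. Spi1 (ENSMUSG00000002111, chromosome 2 at 91082390 to 91115756), which encodes PU.1, was present in every library at 15.5 to 50.8 CPM. It stood at 28.7 CPM at the median in YCNT (15.5 to 50.8, n = 7), 22.5 ± 4.54 in OCNT (SD, n = 4), 26.9 ± 6.39 in YISO (n = 4) and 29.4 ± 9.34 in OISO (n = 6). The log2 fold changes were -0.38 (SE 0.26, edgeR adjusted p = 0.641) between OCNT and YCNT and 0.22 (SE 0.26, edgeR adjusted p = 0.815) between OISO and YISO. YHET held 28.9 and 34.9 CPM, OHET 25.0, 26.9, 34.5 and 39.8 and OHETX 27.6 and 35.8, and every pair of conditions compared overlapped. Among the same 9235 genes those most like Spi1 were Smap1 (r = 0.629), Mrpl10 (0.614) and Vps51 (0.608), and 0.0% had an r above 0.8 in size.

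Cebpa (ENSMUSG00000034957, chromosome 7 at 35119293 to 35121928), which encodes C/EBP alpha, was close to the detection limit, with a highest level of 4.10 CPM (OHETB6 replicate 4, 108 counts) and no count in 7 libraries. All 7 YCNT libraries held it, at 0.301 to 1.01 CPM with a median of 0.439, and the 4 OCNT libraries held 0.0441, 0.190, 0.202 and 0.485 CPM. YISO held 0, 0.199, 1.22 and 1.78 CPM and OISO 0 to 0.596 with a median of 0.0590. The log2 fold changes were -0.94 (SE 1.23, edgeR adjusted p = 0.853) for OCNT minus YCNT and -1.77 (SE 1.43, edgeR adjusted p = 0.680) for OISO minus YISO. The authors' deposited table for young over old heterochronic cells gives Cebpa -1.03 on the log2 scale with an adjusted p of 0.0355. Being young over old, this value means a higher level in the old cells, opposite in direction to the differences above. Neither YHET library had a count of Cebpa, and YHET was all BoyJ while OHET was all B6, so age and strain cannot be told apart there. Among the 9235 genes searched those most like Cebpa were Gnl3l (r = 0.644), S100a10 (0.636) and Aurkaip1 (0.622), and 0.0% had an r above 0.8 in size.

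Gfi1 (ENSMUSG00000029275, chromosome 5 at 107716657 to 107726036, minus strand), a repressor that also restrains stem cell division, was found in all libraries at 1.10 to 13.6 CPM. Its means were 6.36 ± 0.901 CPM in YCNT (SD, n = 7) and 6.44 ± 3.6 in OCNT (n = 4), and 6.24 ± 3.75 in YISO (n = 4) and 7.7 ± 4.39 in OISO (n = 6). The even YCNT libraries lay inside the range of the old ones. The log2 fold changes were -0.15 (SE 0.59, edgeR adjusted p = 0.963) and 0.11 (SE 0.63, edgeR adjusted p = 0.975). YHET held 2.49 and 5.54 CPM, OHET 1.10, 8.72, 11.0 and 13.6, and OHETX 6.68 and 7.52. Irf8 (ENSMUSG00000041515, chromosome 8 at 120736358 to 120756694), the factor of monocytes and dendritic cells, stayed at 5.72 CPM or below and had no count in 2 libraries. It averaged 1.64 ± 1.90 CPM in YCNT and 1.48 ± 0.761 in OCNT, and 1.78 ± 1.77 in YISO and 1.97 ± 1.49 in OISO, with log2 fold changes of -0.27 (SE 1.05, edgeR adjusted p = 0.964) and 0.14 (SE 1.00, edgeR adjusted p = 0.981). The other conditions held 0.384 and 1.10 CPM (YHET), 0, 1.66, 2.37 and 3.50 (OHET) and 0 and 2.05 (OHETX).

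Of the receptors, Csf3r (ENSMUSG00000028859, chromosome 4 at 126024550 to 126044440), which binds the granulocyte growth factor G-CSF, was abundant, at 40.8 to 137 CPM over all libraries. YCNT held 49.3 to 76.3 CPM with a median of 69.8, and OCNT 69.3, 75.6, 78.2 and 137. The highest of all was OBJCNT replicate 1, the only old unjoined BoyJ library, and OHETB6 replicate 3 followed with 125 CPM. The log2 fold change was 0.49 between OCNT and YCNT (SE 0.20, edgeR adjusted p = 0.282) and 0.18 without OBJCNT replicate 1. Between OISO (54.6 to 83.0 CPM, median 61.1) and YISO (40.8, 48.3, 63.1 and 83.5 CPM) it was 0.20 (SE 0.21, edgeR adjusted p = 0.783). Csf1r (ENSMUSG00000024621, chromosome 18), the receptor of the macrophage growth factor M-CSF, stayed at 3.54 CPM or below and had no count in 3 libraries. It averaged 1.61 ± 1.27 CPM in YCNT, 0.486 ± 0.263 in OCNT, 0.357 ± 0.431 in YISO and 0.732 ± 0.591 in OISO. Its log2 fold changes pointed in opposite directions, -1.68 (SE 1.2, edgeR adjusted p = 0.671) in unjoined and 1.32 (SE 1.30, edgeR adjusted p = 0.757) in isochronic mice. YHET held 0.733 and 2.65 CPM, OHET 0, 0.0861, 0.0923 and 3.38, and OHETX 0 and 1.37. Among the 9235 genes searched those most like Csf1r were Camsap1 (r = 0.701), Zbtb45 (0.677) and Dynlt1c (0.676), and 0.0% had an r above 0.8 in size.

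**Figure D5:**
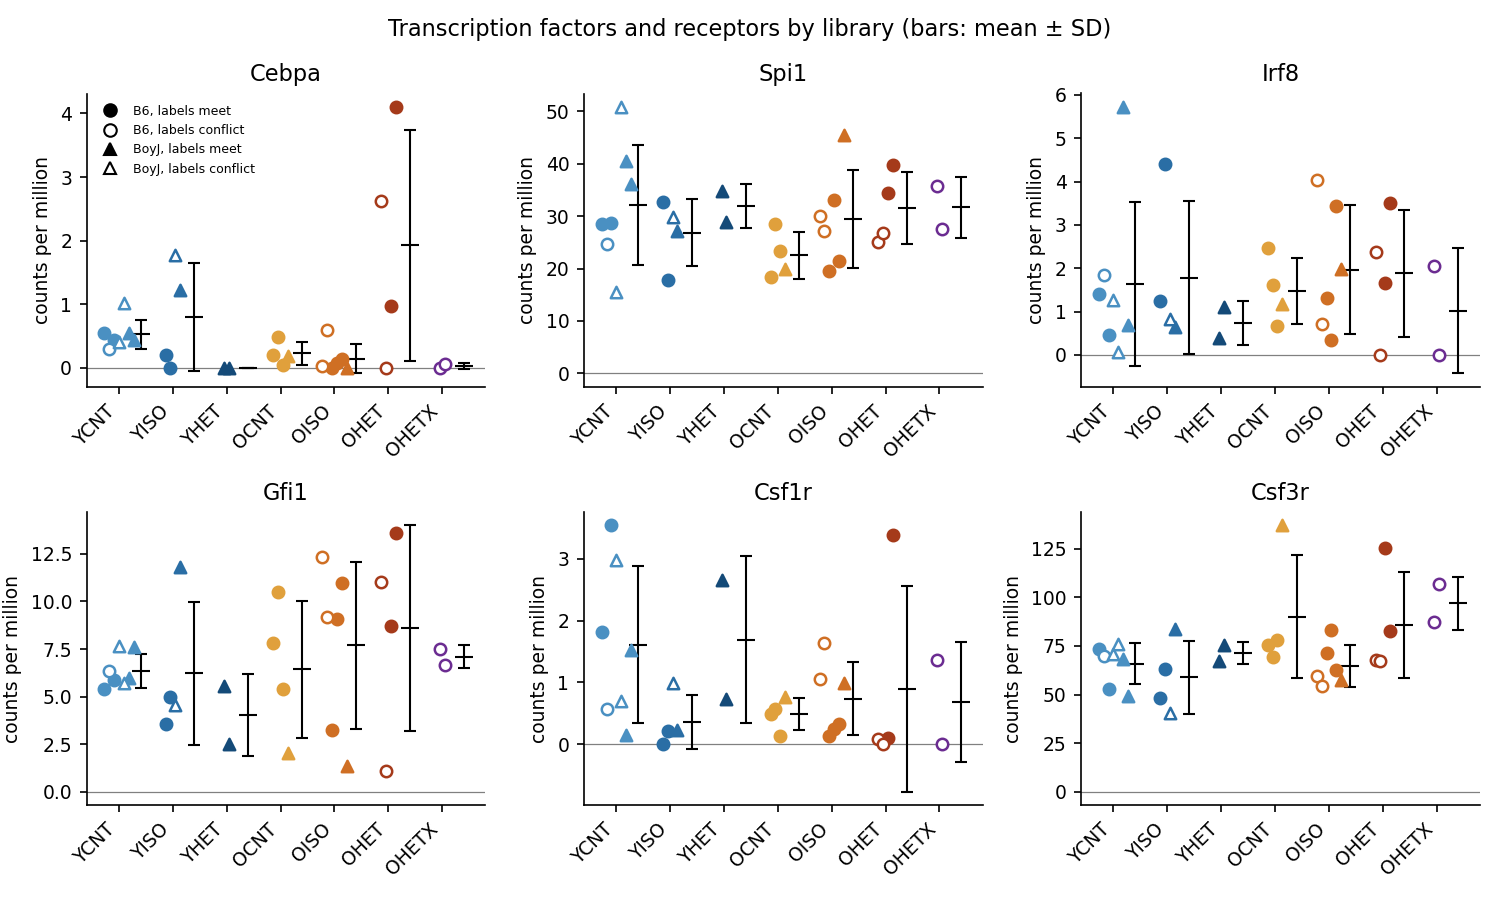
CPM (vertical axes) of Cebpa, Spi1, Irf8, Gfi1, Csf1r and Csf3r for each library by condition (horizontal axes), with B6 as circles, BoyJ as triangles, open symbols for libraries whose labels disagree and black bars for the mean ± SD. Young and old libraries overlap in every panel, and Csf3r and Spi1 are the 2 genes above 15 CPM in all libraries.

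Joining to a partner of like age was compared with no joining. No member was called by edgeR in YISO minus YCNT (0.0% of all genes called; 1643 genes and no member at an unadjusted p under 0.05; 123 genes and no member called by DESeq2). The members with the smallest p were Csf1r (log2 difference -2.32, SE 1.26, edgeR adjusted p = 0.537) and Prtn3 (0.19, SE 0.16, edgeR adjusted p = 0.715). In OISO minus OCNT again none was called (0.0% of genes; 677 genes at an unadjusted p under 0.05; 58 genes and no member called by DESeq2). Here Mpo, Ctsg and Csf3r had an unadjusted p under 0.05: Mpo was 4.53 higher on the log2 scale in OISO (SE 1.81, edgeR adjusted p = 1), and Ctsg had 236 counts over the OISO libraries, 210 of them in OISOB6 replicate 5, and 3 over the OCNT libraries (fitted log2 value 5.49, SE 2.59, edgeR adjusted p = 1). Without 1 library the fitted value for Mpo lay between 1.63 and 4.81. Csf3r differed by -0.44 (SE 0.21, edgeR adjusted p = 1) and Prtn3 by 0.00 (SE 0.16). These comparisons share their control libraries with the comparisons of age.

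Replacing the partner by 1 of the other age gave no called member either. In young cells (YHET minus YISO, 0.0% of genes called; 962 genes at an unadjusted p under 0.05; 65 genes and no member called by DESeq2) the smallest p belonged to Cebpa, with no count in either YHET library, which allows 0.115 and 0.22 CPM. The fitted log2 value of -7.20 (SE 2.58, edgeR adjusted p = 0.765) depends on the prior count and is no bound. Elane was next, with 1 count in the 2 YHET libraries and 293 in the 4 YISO libraries (edgeR adjusted p = 0.852). Of the members only Cebpa had an unadjusted p under 0.05 in these young cells. Prtn3 differed by -0.06 (SE 0.23). In old cells (OHET minus OISO, 0.0% of genes called; 1367 genes at an unadjusted p under 0.05; 54 genes and no member called by DESeq2) Cebpa differed by 3.68 on the log2 scale (SE 1.18, edgeR adjusted p = 0.474), with OHET libraries at 0, 0.969, 2.63 and 4.10 CPM. Csf3r had 0.43 (SE 0.20, edgeR adjusted p = 0.572), and Prtn3 0.15 (SE 0.16). Cebpa and Csf3r were the members at an unadjusted p under 0.05 in these old cells. Old unjoined and old heterochronic cells were not compared by edgeR here. The authors' deposited table for old unjoined over old heterochronic cells gives Mpo a log2 fold change of -0.49 with an adjusted p of 0.0266. That comparison differs in joining as well as in the partner. For Mpo in old unjoined over old isochronic cells the authors give -0.44 with an adjusted p of 0.0516. In old isochronic over old heterochronic cells, where only the partner's age differs, they give -0.05 with an adjusted p of 0.994.

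Old cells found in the marrow of the young partner were compared with old cells of the old partner and with old isochronic cells. Both comparisons rest on the same 2 OHETX libraries, whose labels disagree and for which no library with agreeing labels exists. No member was called in OHETX minus OHET (0.218% of genes called; 2188 genes and 1 member at an unadjusted p under 0.05; 496 genes and no member called by DESeq2) or in OHETX minus OISO (0.187% called; 2095 genes and 1 member at an unadjusted p under 0.05; 438 genes and no member called by DESeq2). Cebpa, with 0 and 0.0613 CPM in OHETX, had a fitted log2 value of -5.46 against OHET (SE 2.21, edgeR adjusted p = 0.267), which rests on 1 count. Csf3r stood at 87.4 and 107 CPM in OHETX, above all 6 OISO libraries (54.6 to 83.0 CPM), a log2 difference of 0.61 (SE 0.25, edgeR adjusted p = 0.294), and 6.4% of all genes lay apart in this way. Mpo was at 298 and 0.613 CPM in the 2 libraries, and its log2 fold changes of 1.80 (SE 1.83, edgeR adjusted p = 0.710) and 2.08 (SE 1.65, edgeR adjusted p = 0.620) became -6.11 and -5.83 without OHETB6X replicate 1. Prtn3 differed by -0.14 (SE 0.22) and 0.00 (SE 0.21).

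Between the strains no member was called (0.0124% of genes; 1090 genes at an unadjusted p under 0.05; 37 genes and no member called by DESeq2). Prtn3 had the smallest p, 0.38 higher on the log2 scale in BoyJ (SE 0.12, edgeR adjusted p = 0.471), followed by Spi1 (0.33, SE 0.19, edgeR adjusted p = 0.8). Of the members only Prtn3 had an unadjusted p under 0.05 between the strains. In the test of whether the age effect differed between isochronic and unjoined mice no member was called (0.0% of genes; 833 genes and no member at an unadjusted p under 0.05; 33 genes and no member called by DESeq2), with the smallest p for Csf1r (3.01, SE 1.75, edgeR adjusted p = 0.949) and Spi1 (0.60, SE 0.36, edgeR adjusted p = 0.949).

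Other genes of the myeloid programme were called with age in small numbers. These are to be read against the 2.11% (unjoined) and 1.45% (isochronic) of all 16068 genes called and the 1886 and 2100 genes at an unadjusted p under 0.05. The medians of log2 values over all genes were -0.0218 and 0.00261. Of 15 further granule and secretory genes of early myeloid progenitors, 1 rose between OCNT and YCNT: Ctsc, which encodes the dipeptidyl peptidase that activates the granule proteases, by 0.67 (SE 0.15, edgeR adjusted p = 0.014), and the list's median was -0.12. In OISO minus YISO none passed (2 at an unadjusted p under 0.05, median -0.15), with Ctsc at 0.55 (edgeR adjusted p = 0.0953) and Hp at 5.58 (SE 2.45, edgeR adjusted p = 0.309). Of 20 further myeloid transcription factors, Fli1, an ETS factor of the megakaryocytic and stem cell programmes, rose in the unjoined mice by 0.39 (SE 0.10, edgeR adjusted p = 0.0393). In isochronic mice Id2, an inhibitor of helix-loop-helix factors, rose by 1.72 (SE 0.42, edgeR adjusted p = 0.0318) and Stat3, the signal transducer downstream of G-CSF and other cytokines, by 0.61 (SE 0.16, edgeR adjusted p = 0.0467). At an unadjusted p under 0.05 but not called in isochronic mice were Egr2 (7.97), Klf2 (2.49), Cebpd (1.96), Rara (1.145) and Fli1 (0.22), all higher, and Cebpg (-0.41), lower. The medians of this list were 0.34 and 0.64.

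Of 20 cytokine receptors and signalling genes, Socs3, a feedback inhibitor of cytokine signalling, rose by 3.19 (SE 0.66, edgeR adjusted p = 0.00597) and Flt3, a receptor of early progenitors that is also among the progenitor markers above, fell by 1.57 (SE 0.30, edgeR adjusted p = 0.00339) in unjoined mice, and the median was -0.18. In isochronic mice none passed (3 at an unadjusted p under 0.05, median 0.07), with Il1r1 at 1.29 (edgeR adjusted p = 0.0661) and Socs3 at 2.02 (edgeR adjusted p = 0.15). Of 11 tested lymphoid and erythroid priming genes, Gata2 rose by 0.44 (SE 0.09, edgeR adjusted p = 0.00881) and Satb1, a chromatin organiser of lymphoid priming, and Gata1, the erythroid and megakaryocytic factor, fell by 1.79 and 2.52 (edgeR adjusted p = 0.0459 and 0.0463) in unjoined mice, with a median of -0.30. In isochronic mice none passed (1 at an unadjusted p under 0.05, median -0.07), with Gata2 at 0.36 (edgeR adjusted p = 0.0601).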

How the data were processed

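RNA of sorted stem cells, isolated with PicoPure and made into libraries with the Nugen Ovation Trio kit per the labels' protocols, was sequenced in 30 samples. The authors deposited a table of estimated counts per gene. The authors' 11 deposited comparison tables hold per gene a log2 fold change with its standard error, a test score, and p-values before and after adjustment, each named first condition over second. Their log2 value divided by its standard error does not always give the score. For Mpo in old unjoined over old heterochronic cells they are -0.49, 0.31 and -3.73. The sizes of these log2 values are therefore not set beside those of edgeR. Salmon, DESeq2, FastQC, MultiQC and GRCm38 are named in the submitters' processing notes, without versions. The estimated counts were rounded to whole numbers before the fits. Salmon splits reads shared by similar genes, which can blur low values of related proteases.

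Columns were matched to samples by the library code in the title. 1 column whose code is in no title was not used. Across genes with a mean count above 100, log ratios under title matching correlated with the authors' deposited log2 values at 0.732 to 0.843, under description matching at -0.153 to 0.728, and title matching was higher in 11 of 11 tables. No libraries were repeats within sampling noise (closest pair 22.8 in chi-square per degree of freedom).

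Tests used edgeR 4.0.16 (limma 3.58.1, R 4.3.3) in 1 fit of 29 libraries: TMM factors, genes kept by filterByExpr over conditions (16068), terms for 7 conditions and strain (21 residual degrees of freedom) and the robust quasi-likelihood F-test. A gene was called when its p, adjusted after Benjamini and Hochberg, was under 0.05. Standard errors were taken as the log2 value divided by the root of F. Correlations used log2 CPM with a prior count of 2 and 100000 permutations within condition (NumPy 2.4.6). On simulated data with 16068 genes the fit recovered, for OCNT minus YCNT, 46 of 100 genes given a 2-fold change and 81 of 100 given a 4-fold change. Of 132 calls 5 were false. Changes were given only to genes with a mean of at least 2 CPM, so recovery at lower levels was not measured. Gene positions and exon lengths come from GENCODE M21 (GRCm38) by gene identifier, and start-site sequences from RefSeq GRCm38.p6. Of the members, Spi1 has no entry there.

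The members, the other gene lists and the rule for named genes were chosen with earlier results of these data known. The rule names all members in both age comparisons, elsewhere called members or the 2 of smallest p, and from each list up to 4 called genes or 2 of smallest p. Beyond this rule, transcription factors at an unadjusted p under 0.05 in isochronic mice are named. Depth limits precision: 7659468 to 30932977 counts per library. Alternatives were DESeq2 1.42.0, RLE factors, a fit without the strain term, all genes unfiltered, B6 only, a fit of the compared conditions alone, the 2 other sets of columns and each library left out. Leaving out libraries rich in neutrophil markers was added after seeing the data.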

Additional observations from a re-analysis of the deposited data

Results flagged for a closer look

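In 15 of 50 groups of 4 to 10 libraries a single library lay far from the others in CPM of a member, by a gap test (Dixon's, at the 95% level) that chance passes in about 1 of 20 groups of normally spread values. The rate for skewed CPM with many values of 0 was not measured. Mpo, Elane or Ctsg gave 8 of these. OISOB6 replicate 5 stood apart in the isochronic old group for all 3 genes, with Mpo at 187 CPM (next 9.46), Elane at 24.8 (next 2.747) and Ctsg at 7.67 (next 0.603). Elane stood at 3.58 CPM in OBJCNT replicate 1 (next 0.441). Ctsg stood at 2.11 CPM in YBJCNT replicate 1, 8.56 in YISOBJ replicate 1, 0.121 in OB6CNT replicate 1 (3 counts, the others 0) and 13.1 in OHETB6 replicate 4.

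Csf1r stood at 3.38 CPM in that same OHETB6 replicate 4 (next 0.0923), and Csf3r at 137 CPM in OBJCNT replicate 1 (next 78.2). Cebpa was apart in YBJCNT replicate 2 (1.01 CPM) and OISOB6 replicate 2 (0.596 CPM), Irf8 in YBJCNT replicate 3 (5.72 CPM) and YISOB6 replicate 2 (4.41 CPM), and Gfi1 in YISOBJ replicate 2 (11.8 CPM, next 4.99). No group of Prtn3 or Spi1 held such a library.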

How the results depend on the processing

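The count of members called was the same under every alternative run, in all 11 comparisons. Prtn3 passed in each of 39 settings for OCNT minus YCNT (log2 fold change 1.2 to 1.68, largest edgeR or DESeq2 adjusted p = 0.0353), 39 for OISO minus YISO (1.25 to 1.55, 0.0154) and 38 for the age difference averaged over unjoined, isochronic and heterochronic mice (1.25 to 1.60, 0.000925). The number of co-varying pairs, 3, was 2 to 3 with each library left out and 0 on the 19 libraries whose labels meet, and the cause was not tested. No paired analysis was possible because replicate numbers only follow the order of the samples and the labels name no partners. Over all genes edgeR and DESeq2 called 339 and 582 in OCNT minus YCNT, 233 and 628 in OISO minus YISO, 608 and 1037 averaged, 35 and 496 in OHETX minus OHET, 30 and 438 in OHETX minus OISO and 2 and 37 between strains, and the fewest under any alternative were 129, 108, 231, 0, 0 and 0.

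Directions of members that were not called turned as follows. On the 19 libraries Elane gave 0.16 (OCNT minus YCNT) and, for OISO minus YISO, Irf8 -0.27 and Gfi1 -0.32. With columns matched by description, OISO minus YISO gave Mpo -0.32, Ctsg -0.60, Csf1r -1.13, Irf8 -0.68 and Gfi1 -0.30, YISO minus YCNT gave Prtn3 -0.16, YHET minus YISO Elane 1.24, OHETX minus OHET Mpo -2.22, and OHETX minus OISO Mpo -2.76 and Csf3r -0.063. With no strain term Gfi1 gave 0.013 (OCNT minus YCNT) and Ctsg -0.51 (OISO minus YISO). In B6 alone, OCNT minus YCNT gave Irf8 0.35 and Gfi1 0.42, and OISO minus YISO Cebpa 0.85 and Irf8 -0.53. Without the 6 libraries rich in neutrophil markers, OCNT minus YCNT gave Elane 1.45, OISO minus YISO gave Mpo -2.39, Elane -1.08, Ctsg -0.58, Irf8 -0.72 and Gfi1 -0.36, and Mpo gave -5.02 against OHET and -2.04 against OISO in OHETX.

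Leaving out 1 library at a time, OCNT minus YCNT ranged from -2.79 to 1.34 for Elane, -0.57 to 0.47 for Irf8 and -0.45 to 0.32 for Gfi1. OISO minus YISO ranged from -2.18 to 1.01 for Mpo, -0.87 to 2.17 for Elane, -1.71 to 5.57 for Ctsg, -0.18 to 1.13 for Irf8 and -0.28 to 0.59 for Gfi1. Mpo ranged from -6.11 to 2.89 in OHETX minus OHET and from -5.83 to 5.05 in OHETX minus OISO. Depth limits Elane, Ctsg, Cebpa, Csf1r and Irf8, which had no count in 2 to 15 libraries each.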
